A study of Mus musculus with 11 samples.

Results

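The 9 genes described here encode filamins, tensins and other proteins that tie the actin cytoskeleton to cell adhesions: Flna, Flnc, Tns1, Tns3, Lmcd1, Vcl, Zyx, Tln1 and Synpo. They were taken by name from the 2 deposited gene tables, which list 24062 genes for the Ift88 experiment and 26667 for the Dzip1 experiment, and all 9 are present in both. RNA of mouse mitral leaflets was sequenced in 11 libraries. The Ift88 experiment set 3 knockout libraries (NfatC1Cre(+), Ift88f/f) against 2 wild-type libraries that carry the same Cre (NfatC1Cre(+); Ift88+/+). The Dzip1 experiment set 3 heterozygous libraries (Dzip1S14R/+), which keep 1 wild-type copy, against 3 wild-type libraries (Dzip1+/+). Ift88 encodes a protein of the transport complex that builds the primary cilium, Dzip1 a protein of the ciliary base, and the study asked how losing the first or mutating the second alters the leaflet transcriptome. The sources used here give no ages, no strain and no number of animals per library, so each p-value speaks only of how far these libraries lie apart, which may be technical. Nfatc1 marks valve endothelium and the endocardium it comes from, so leaflet cells outside that lineage are not expected to have recombined.

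Integrins hold a cell to its matrix, and a chain of adaptor proteins passes the pull of that matrix on to actin. Talin binds the integrin tail and opens the receptor, vinculin then joins talin to actin, tensins take over at mature matrix adhesions, filamins cross-link actin into networks and also bind integrins, and zyxin gathers where actin bundles are strained. In the mitral valve these proteins lie in interstitial cells that shape a collagen- and proteoglycan-rich leaflet, as well as in endothelium and in the muscle at the leaflet's base. Human FLNA mutations cause an X-linked valve dystrophy with mitral prolapse, and the human TNS1 and LMCD1 loci have been associated with mitral prolapse.

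Several of these genes are known targets of serum response factor, which binds the CArG box, so the start sites were searched for it, and for the motif CATTCC of the TEAD factors, through which the Hippo pathway acts. RefSeq promoters of build GRCm38.p6, from 250 bases before to 50 after the annotated start, were matched by symbol for 8 of the 9 genes, all but Synpo. These 8 have 9 promoters, and a gene was counted if any of its promoters held the motif. The percentages below count single promoters, so the units differ. A CArG box was found in 2 of the 8, Vcl and Lmcd1, and in 1.63% of all 32851 promoters. CATTCC, read on either strand (as GGAATG on the other), was found in 3 of the 8, Flna, Flnc and Vcl, and in 14.7% of all promoters. In Vcl, which has both, the CATTCC match starts 143 bases upstream and lies outside the window printed. The windows below are shown for the CArG boxes of Vcl and Lmcd1 and for the CATTCC of Flna, the prolapse gene. Capitals mark the motif, which starts 227, 215 and 146 bases upstream of the start. The windows lie at chr14:20929148-20929227 on the forward strand for Vcl, chr6:112273508-112273587 on the forward strand for Lmcd1 and chrX:74246635-74246714 on the reverse strand for Flna. The Flna window lies inside the gene span given below, so the RefSeq start used for it is not the outer end of that span.
Vcl: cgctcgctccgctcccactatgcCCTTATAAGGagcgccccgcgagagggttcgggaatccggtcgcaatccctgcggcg
Lmcd1: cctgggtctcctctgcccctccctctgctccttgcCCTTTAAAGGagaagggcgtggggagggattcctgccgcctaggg
Flna: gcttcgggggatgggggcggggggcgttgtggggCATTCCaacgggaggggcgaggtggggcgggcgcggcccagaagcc
These matches describe letters in a window and not bound sites, and binding was not measured.

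Total counts were 23.4 to 40.3 M in the knockout libraries and 31.4 and 53.8 M in their wild type, and 86.0 to 93.5 M in the S14R/+ libraries and 75.1 to 79.1 M in theirs. Levels below are CPM, counts per M of a library's total. The spread between libraries of one genotype was far wider in the Ift88 experiment, with a biological coefficient of variation of 87.7%, against 7.85% in the Dzip1 experiment. Ift88 itself stood at 3.03, 4.12 and 0.428 CPM in the knockout libraries, below 6.31 and 21.2 CPM in their wild type, and the groups did not overlap (log2 fold change -2.48 ± 1.13, SE; edgeR adjusted p = 0.802). Dzip1 stood at 29.5, 27.99 and 28.2 CPM in S14R/+ and at 30.4, 27.6 and 32.3 CPM in wild type. The level of a gene with a point allele does not check that label. Leaflet markers of interstitial cells (Col1a1, Col3a1, Postn, Vcan) and of valve endothelium (Nfatc1, Cdh5, Pecam1) had counts in all 11 libraries. The Ift88 wild-type libraries stood apart from the others and from each other. The 30 cardiomyocyte markers summed to 55941, 43438 and 58555 CPM in the knockout libraries, against 81020 CPM in wild-type replicate 1 and 313 CPM in wild-type replicate 2, where 2 of the markers were at 0. The 18 endothelial markers summed to 2823, 4519 and 3331 CPM in knockout, against 591 and 5247 CPM in wild type, and the 16 interstitial markers to 10006, 9712 and 7407 CPM in knockout, against 1984 and 5099 CPM in wild type, with no interstitial marker at 0. In bulk tissue, fewer cells of a type and less RNA per cell cannot be told apart.

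In the Ift88 experiment, all 9 genes had a higher fitted level in knockout than in wild-type leaflets, by a median log2 fold change of 1.05, while the median of all 14244 tested genes was -0.01 and 49.4% of them were positive. In 7 of the 9 the lowest knockout library exceeded the highest wild-type library, as in 15.4% of tested genes; Flna and Lmcd1 were the exceptions, and 0 of the 9 lay wholly lower, as 7.55% of tested genes did. None of the 9 passed edgeR's quasi-likelihood test at an adjusted p of 0.05, and neither did any other gene, so percent called was 0%. At an unadjusted p under 0.05, where 856 of the 14244 genes stood (6.01%), 6 of the 9 were higher, against 4.75% of tested genes, and 0 lower, against 1.26%. All these shares cover genes of every transcript length, while most of the 9 have long transcripts, as described below. That count of 6 was 3 without knockout replicate 1, 3 without knockout replicate 2, between 4 and 7 without any of the other libraries, and 2 with the length trend removed. limma-voom also called 0 of the 9. DESeq2 called Flnc and Synpo higher, among 2.21% of the 16164 genes to which it gave an adjusted p.

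**Figure D1:**
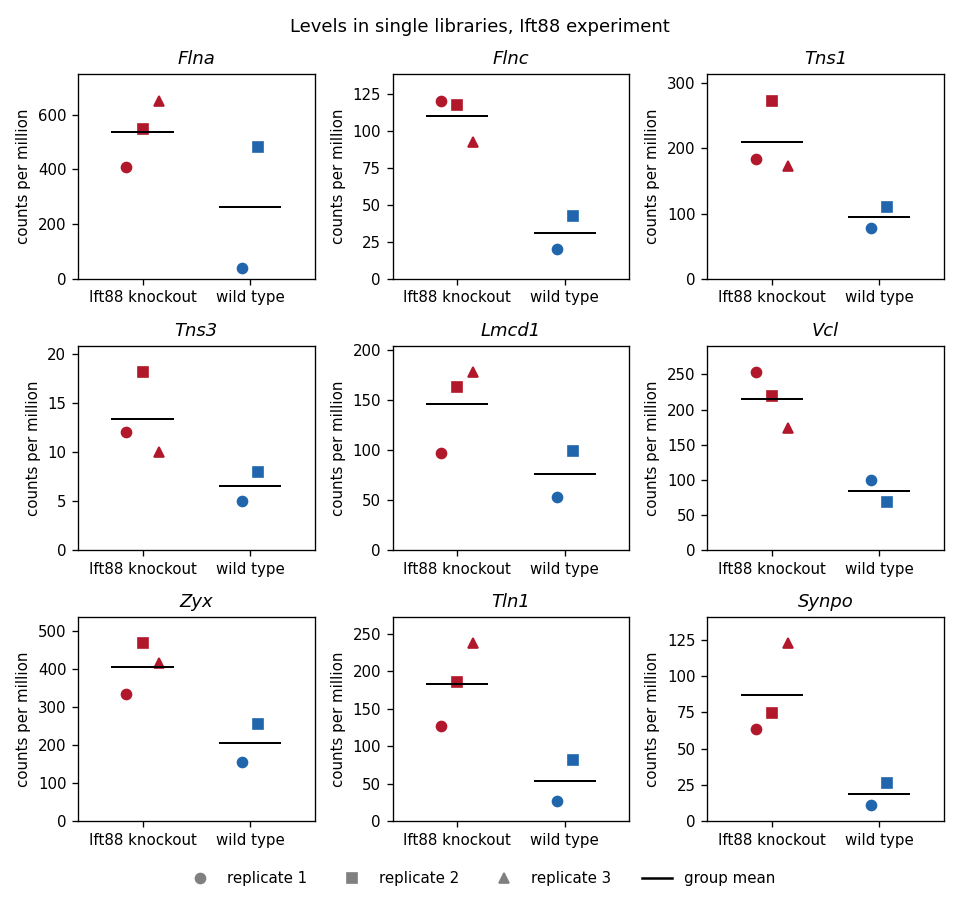
Levels of the 9 genes in the Ift88 experiment, in CPM on a linear vertical axis that starts at 0, one point per library; knockout libraries stand left of wild-type libraries and the horizontal lines are group means. The knockout points lie above both wild-type points for 7 genes, while Flna in wild-type replicate 2 (483 CPM) falls among the knockout libraries (408 to 650 CPM) and Lmcd1 in wild-type replicate 2 (98.5 CPM) lies just above its lowest knockout library (96.7 CPM).

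Talin 1 (Tln1, chromosome 4, 43531519 to 43562691, reverse strand, GRCm38) is the adaptor that binds integrin tails. It stood at 127, 185 and 237 CPM in the knockout libraries and at 26.5 and 81.5 CPM in wild type. The lowest knockout library was above the higher wild-type library. Means were 183 ± 55.1 CPM in knockout (SD, n = 3) and 54.0 ± 38.9 CPM in wild type (SD, n = 2). The log2 fold change was 1.71 ± 0.52 (SE), with an edgeR adjusted p of 0.802 and a 95% interval of 0.44 to 2.97. It was 1.18 when wild-type replicate 1 was left out and 2.47 when replicate 2 was. Its partner vinculin (Vcl, chromosome 14, 20929398 to 21033676, forward strand), whose promoter held the CArG box, stood at 253, 219 and 173 CPM in knockout and at 99.4 and 68.0 CPM in wild type. Here too the groups did not overlap, but the higher wild-type library was replicate 1 for Vcl and replicate 2 for Tln1. Vcl averaged 215 ± 40.2 CPM in knockout and 83.7 ± 22.2 CPM in wild type, a log2 fold change of 1.19 ± 0.42 (edgeR adjusted p = 0.802). Per kilobase of transcript, Tln1 stood at 0.314, 0.531 and 0.859 of the Vcl level in knockout and at 0.168 and 0.752 of it in wild type, so the balance of the partners differed by more than 2 times within each genotype.

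Filamin A (Flna, chromosome X, 74223461 to 74249820, reverse strand), the broadly expressed filamin, stood at 408, 548 and 650 CPM in the knockout libraries and at 39.1 and 483 CPM in wild type. The 2 wild-type libraries differed 12.4-fold, and the higher one fell inside the knockout range. Among the 9 genes the next widest wild-type gaps were 3.07-fold for Tln1, 2.33-fold for Synpo and 2.08-fold for Flnc, the other 5 lying between 1.40-fold and 1.86-fold. Flna averaged 535 ± 121 CPM in knockout and 261 ± 314 CPM in wild type, and its log2 fold change was 1.05 ± 0.88 (edgeR adjusted p = 0.900; 95% interval -1.09 to 3.20). That value rested on which wild-type library was kept: it was 0.16 when wild-type replicate 1 was left out and 3.46 when replicate 2 was. Within the libraries whose titles share the prefix IR28N, 2 knockout and wild-type replicate 1, it was 3.31. The cytoplasmic actins that Flna cross-links stood lowest in wild-type replicate 1, as Flna did. They stood highest in wild-type replicate 2, where Flna lay inside the knockout range. Actb had 1575, 1553 and 1640 CPM in knockout, against 568 and 1997 CPM in wild type. Actg1 had 2688, 3509 and 2586 CPM in knockout, against 1002 and 4426 CPM in wild type. The endothelial markers were ordered the same way in the wild-type libraries, and their part in the Flna values was not tested.

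Filamin C (Flnc, chromosome 6, 29433256 to 29461883, forward strand), the filamin of striated muscle Z-discs, stood at 120, 118 and 92.5 CPM in knockout and at 20.3 and 42.2 CPM in wild type, with no overlap. It averaged 110 ± 15.3 CPM in knockout and 31.2 ± 15.5 CPM in wild type. Its log2 fold change was 1.74 ± 0.40 (edgeR unadjusted p = 0.00428, adjusted p = 0.802; 95% interval 0.78 to 2.71). DESeq2 gave 1.68 with an adjusted p of 0.00925, the smallest among the alternatives, whose adjusted p for Flnc reached 1.00. In the authors' deposited table Flnc has a log2 fold change of 1.49 and an adjusted p of 0.0184, and that table lists 1.36% of 12872 genes as higher at an adjusted p under 0.05. In wild type the higher Flnc value was in replicate 2, which had 29.7 CPM of cardiac actin Actc1. The lower was in replicate 1, which had 26161 CPM of it. These libraries also differed in endothelial and interstitial markers, and the part of muscle content in the Flnc values was not tested. Per kilobase, Flnc stood at 0.276, 0.201 and 0.133 of the Flna level in knockout and at 0.485 and 0.0817 of it in wild type.

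Synaptopodin (Synpo), an actin-bundling partner of alpha-actinin known from kidney podocytes and dendritic spines, had the largest fitted difference of the 9. It stood at 63.7, 74.2 and 122 CPM in knockout and at 11.3 and 26.3 CPM in wild type, with no overlap. The means were 86.8 ± 31.3 CPM in knockout and 18.8 ± 10.6 CPM in wild type. The log2 fold change was 2.14 ± 0.50 (edgeR unadjusted p = 0.00499, adjusted p = 0.802; 95% interval 0.92 to 3.36), a 4.40-fold ratio. DESeq2 gave 2.07 with an adjusted p of 0.0127, again the smallest among the alternatives, which ran up to 1.00. The authors' deposited table gives Synpo a log2 fold change of 1.73 with an adjusted p of 0.0237. The other 7 genes have an adjusted p between 0.170 for Tln1 and 0.812 for Flna in the authors' deposited table.

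Tensin 1 (Tns1, chromosome 1, 73910231 to 74124449, reverse strand), which links integrin tails to actin at fibrillar adhesions, stood at 183, 272 and 173 CPM in knockout and at 78.5 and 109.7 CPM in wild type. The groups did not overlap, and the log2 fold change was 1.04 ± 0.36 (edgeR adjusted p = 0.802; 95% interval 0.17 to 1.92). Tensin 3 (Tns3, chromosome 11, 8431652 to 8664535, reverse strand), a relative with the same integrin-binding end, was the lowest of the 9 per kilobase in this experiment. It stood at 12.1, 18.1 and 9.93 CPM in knockout and at 5.03 and 7.96 CPM in wild type, a log2 fold change of 0.94 ± 0.67 (edgeR adjusted p = 0.880). The lowest knockout library lay less than 2 CPM above the higher wild-type library. The tensins kept a steadier balance than the filamins: per kilobase, Tns3 stood at 0.0877, 0.0885 and 0.0763 of Tns1 in knockout and at 0.0854 and 0.0966 of it in wild type.

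Zyxin (Zyx, chromosome 6, 42349630 to 42360213, forward strand) is a LIM protein that recruits Ena/VASP proteins to strained stress fibres. It stood at 335, 468 and 417 CPM in knockout and at 157 and 256 CPM in wild type, with no overlap and a log2 fold change of 0.88 ± 0.35 (edgeR adjusted p = 0.802; 95% interval 0.02 to 1.73). Lmcd1 (chromosome 6, 112273758 to 112330425, forward strand), a LIM protein known in mouse as a repressor of Gata6 and the other member with a CArG box in its promoter, stood at 96.7, 163 and 178 CPM in knockout and at 52.9 and 98.5 CPM in wild type. Wild-type replicate 2 lay just above knockout replicate 1. Its log2 fold change was 0.85 ± 0.41 (edgeR adjusted p = 0.802; 95% interval -0.13 to 1.84).

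Fold changes in the Ift88 experiment followed transcript length across all genes. Tested genes were cut by length into 5 groups of equal size, the shortest up to 1717 bases and the longest from 5090 bases, and from short to long their median log2 fold changes were -0.49, -0.21, -0.06, 0.20 and 0.77. The Spearman correlation across genes, which are not independent replicates, was 0.42. Of the 9 genes, 7 fall in the longest group, with transcripts of 5159 bases (Synpo) to 9966 bases (Tns1), so their median has to be read against 0.77 and not 0. The shares of 15.4% without overlap and 4.75% at an unadjusted p under 0.05 have the same limit. They were not computed for long transcripts alone. Zyx (3188 bases) falls in the middle group and Lmcd1 (1730 bases) in the group before it, and both lay above their groups' medians. With the length trend removed, the log2 fold change was 1.65 for Synpo, 1.07 for Lmcd1, 0.79 for Zyx, 0.72 for Tln1, 0.63 for Flnc, 0.62 for Vcl and 0.08 for Flna. It was -0.04 for Tns3 and -0.19 for Tns1, so the tensins turned direction, and the median of the 9 was 0.63. In the Dzip1 experiment the same correlation was -0.06.

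**Figure D2:**
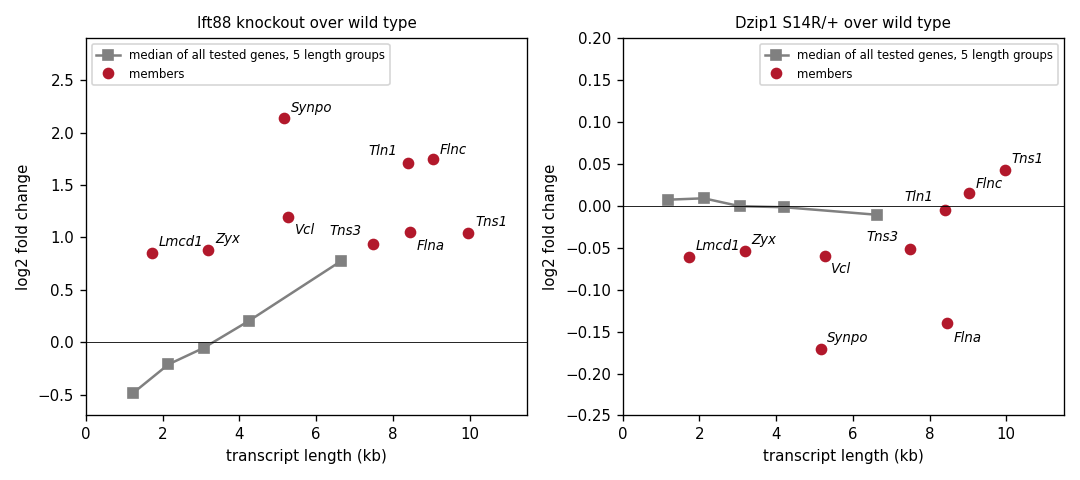
Log2 fold change against transcript length in kilobases on linear axes, Ift88 knockout over wild type on the left and Dzip1 S14R/+ over wild type on the right, with different vertical scales; grey squares are medians of 5 equal groups of tested genes ordered by length and red points the 9 genes. On the left the squares climb from -0.49 to 0.77 and all 9 genes lie above the median of their own length group, Synpo (2.14) farthest; on the right the squares stay within 0.02 of 0.

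Other genes of the adhesion machinery were counted by list, without correction for transcript length and without a test against the 9 genes. Of 27 tested genes of the integrin-linked adhesion scaffold, 22 had a positive log2 fold change, with a median of 0.37. At an unadjusted p under 0.05, 5 were higher and 0 lower, and edgeR called 0 at the adjusted threshold while DESeq2 called 2. Enah, an Ena/VASP protein that zyxin recruits, had 55.4, 94.0 and 48.2 CPM in knockout, against 16.1 and 19.7 CPM in wild type (log2 fold change 1.75 ± 0.45, edgeR adjusted p = 0.802). Kank2, which binds talin, had 24.6, 32.4 and 28.3 CPM in knockout, against 7.39 and 8.22 CPM in wild type. Parva, the parvin that joins integrin-linked kinase to actin, had 210.5, 368 and 312 CPM in knockout, against 131 and 126 CPM in wild type. In all 3 the genotypes did not overlap and the wild-type libraries lay close together. These 3 were named for the smallest p in the list, a choice that favours both traits. Of the 27, 6 lay wholly higher and 1 wholly lower, against 15.4% and 7.55% of tested genes. Of 26 actin cross-linkers and LIM proteins, 20 were positive (median 0.44), 1 was higher at an unadjusted p under 0.05 (Fhl1) and none was called by edgeR or DESeq2. Of 15 filamin partners, 13 were positive (median 0.65), 1 was higher at an unadjusted p under 0.05 (Filip1, 1.93 ± 0.72) and none was called by either tool. Of 11 other mitral prolapse genes, 10 were positive (median 1.10) and 3 were higher at an unadjusted p under 0.05, Fbn2, Dchs1 and Fbn1; edgeR called none and DESeq2 2. Of the 6 actins, 5 were positive (median 0.18) and 0 were higher at an unadjusted p under 0.05, with 0 calls by edgeR and DESeq2. Wholly higher in knockout were 9 of the 26 cross-linkers and LIM proteins, 3 of the 15 filamin partners, 7 of the 11 prolapse genes and 0 of the 6 actins. In these lists 0 genes lay wholly lower. Interstitial markers moved with the 9 genes: 14 of 16 were positive with a median of 0.94 and 7 higher at an unadjusted p under 0.05. Of the 16, 10 lay wholly higher and 0 wholly lower, and DESeq2 called 3 higher. Smooth muscle and pericyte markers also moved with the 9 genes, 13 of 15 being positive with a median of 0.92. Of the 15, 6 lay wholly higher and 1 wholly lower. At an unadjusted p under 0.05, 3 of them were higher and 1 lower, and DESeq2 called 1. Their summed level, over 16 genes, was 2054, 1822 and 3556 CPM in knockout and 2160 and 870 CPM in wild type, so the sums overlapped. The part of either cell type in the result was not tested. With the cardiomyocyte level as a covariate, the median of the 9 genes was 1.10 and Flna stood at 3.21. That level, the mean log2 level of 28 markers, was 8.90, 8.93 and 9.08 in knockout and 9.65 and 0.829 in wild type. The covariate thus mainly sets wild-type replicate 2 apart and cannot separate muscle content from other differences of that library.

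In the Dzip1 experiment the 9 genes differed little between genotypes. All directions here follow the labelled genotypes, which the fold changes in the authors' deposited table do not bear out: over all genes they correlated with those fitted here at a Spearman rho of -0.543. The median log2 fold change was -0.05, against -0.00033 over all 16160 tested genes. 2 of the 9 were positive, against 49.9% of tested genes. edgeR called 0 of the 9 and 0 of all genes, so percent called was 0%, and DESeq2 and limma-voom called 0 as well. At an unadjusted p under 0.05, where 959 of the 16160 genes stood (5.93%), 2 of the 9 were lower, Synpo and Flna, against 3.53% of tested genes, and 0 higher, against 2.41%. That count of 2 was 1 without S14R/+ replicate 1 or 2 and without wild-type replicate 1 or 3, and 0 with the cardiomyocyte level as a covariate. In 2 of the 9, Synpo and Vcl, every S14R/+ library lay below every wild-type library, as in 5.86% of tested genes, and in 0 of the 9 above, as in 4.58%.

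**Figure D3:**
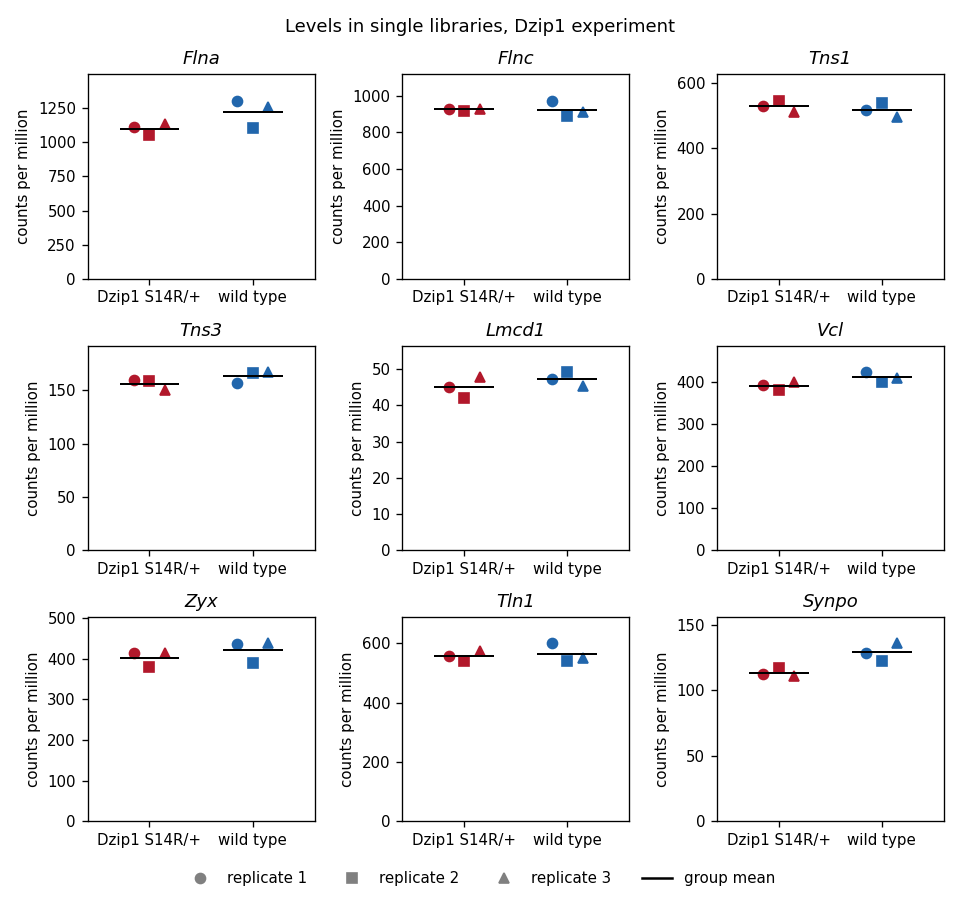
Levels of the 9 genes in the Dzip1 experiment, in CPM on a linear vertical axis that starts at 0, one point per library; S14R/+ libraries stand left of wild-type libraries and the horizontal lines are group means. The 2 genotypes lie at nearly the same height for all 9 genes, and only Synpo (111 to 117 CPM in S14R/+, 123 to 136 CPM in wild type) and Vcl (381 to 398 CPM in S14R/+, 399 to 422 CPM in wild type) do not overlap.

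Synpo stood at 112.5, 117 and 111 CPM in S14R/+ and at 128, 123 and 136 CPM in wild type. The means were 114 ± 2.95 CPM in S14R/+ and 129 ± 6.61 CPM in wild type (SD, n = 3 each). The log2 fold change was -0.17 ± 0.038 (SE; edgeR unadjusted p = 0.00120, adjusted p = 0.822; 95% interval -0.26 to -0.09). Over the alternatives its adjusted p ran from 0.0800 to 1.00. Flna stood at 1111, 1051 and 1137 CPM in S14R/+ and at 1303, 1109 and 1257 CPM in wild type. Wild-type replicate 2 lay between S14R/+ libraries, so the groups overlapped. Its log2 fold change was -0.14 ± 0.062 (edgeR unadjusted p = 0.0476, adjusted p = 0.828; 95% interval -0.28 to -0.0018). Without wild-type replicate 2 it was -0.20 with an edgeR adjusted p of 0.0867, the lowest of the alternatives, which reached 1.00.

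Flnc, at 929, 918 and 930 CPM in S14R/+ and 971, 891 and 909 CPM in wild type, had a log2 fold change of 0.01 ± 0.047 and a 95% interval of -0.09 to 0.12. As Flna stood lower and Flnc level, Flnc per kilobase was 0.783, 0.817 and 0.765 of Flna in S14R/+ and 0.697, 0.752 and 0.677 of it in wild type. Every S14R/+ library lay above every wild-type library, by a narrow margin. The tensin ratio did not overlap either. Tns3 per kilobase was 0.402, 0.387 and 0.391 of Tns1 in S14R/+ and 0.404, 0.411 and 0.448 of it in wild type. How often other gene pairs separate in this way was not computed. Vcl stood at 392, 381 and 398 CPM in S14R/+ and at 422, 399 and 409 CPM in wild type, a log2 fold change of -0.06 ± 0.038 (edgeR adjusted p = 0.860; 95% interval -0.14 to 0.03). The gap between the groups, about 1 CPM, was narrow beside the spread within each. Tln1 stood at 556, 541 and 574 CPM in S14R/+ and at 600.1, 541 and 549.8 CPM in wild type, and its interval ran from -0.12 to 0.11. For Tns1 the levels were 529, 545 and 513 CPM in S14R/+ and 517, 538 and 497 CPM in wild type (log2 fold change 0.04 ± 0.048; 95% interval -0.06 to 0.15). The remaining genes overlapped as well. Tns3 averaged 156 ± 4.93 CPM in S14R/+ and 163 ± 5.63 CPM in wild type, Zyx 402 ± 20.4 CPM in S14R/+ and 421 ± 28.3 CPM in wild type, and Lmcd1 45.0 ± 2.97 CPM in S14R/+ and 47.3 ± 1.87 CPM in wild type. Their log2 intervals were -0.14 to 0.03, -0.17 to 0.06 and -0.19 to 0.07, and their edgeR adjusted p lay between 0.867 and 0.893.

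**Figure D4:**
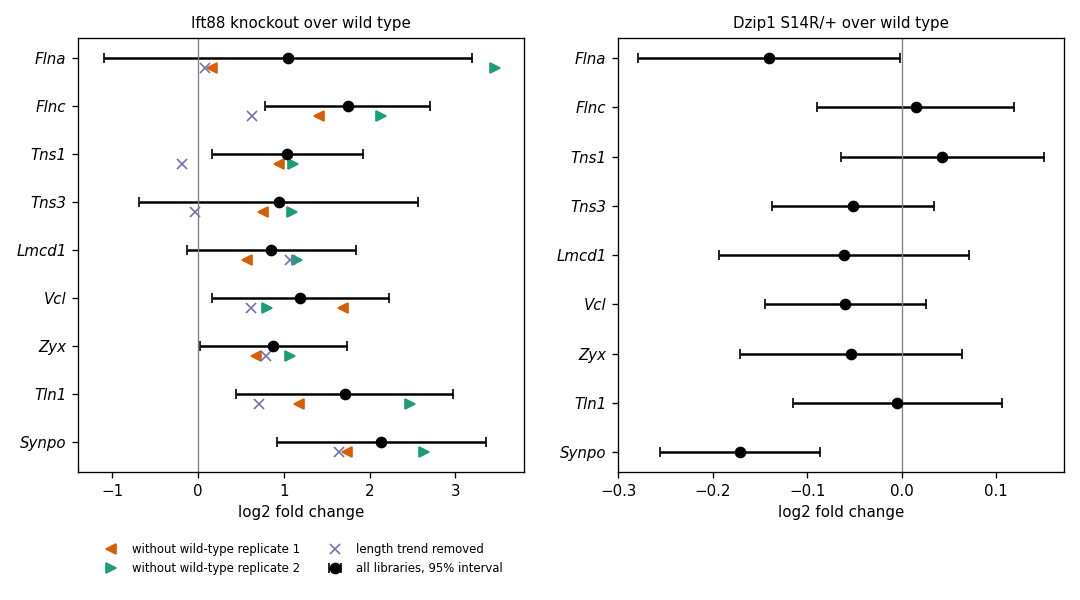
Log2 fold changes of the 9 genes with 95% intervals (black points and bars), Ift88 knockout over wild type on the left and Dzip1 S14R/+ over wild type on the right, with different horizontal scales. Coloured triangles on the left give the value without each wild-type library and crosses the value with the length trend removed: Flna spans 0.16 to 3.46 by wild-type library, and the crosses of Tns1 and Tns3 lie at or below 0.

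Cell type markers also differed in the Dzip1 experiment, and by median log2 fold change those of blood cells did so by more than the 9 genes. Of 9 erythroid and platelet markers 5 were lower at an unadjusted p under 0.05 (median log2 fold change -0.77), with sums of 174 to 350 CPM in S14R/+ and 308 to 642 CPM in wild type. Of 12 tested macrophage and leukocyte markers 1 was positive and 4 were lower at an unadjusted p under 0.05 (median -0.34), with sums of 111 to 122 CPM in S14R/+ and 124 to 157 CPM in wild type, which did not overlap. edgeR and DESeq2 called none of these, and their part in the values of the 9 genes was not tested. The cardiomyocyte markers summed to 58390 to 58746 CPM in S14R/+, above 51252 to 56500 CPM in wild type, and the interstitial markers to 7054 to 7605 CPM in S14R/+, against 7489 to 9172 CPM in wild type. Of the 16 interstitial markers 4 were positive (median -0.07). At an unadjusted p under 0.05, 6 of them were lower, against 3.53% of tested genes, and 0 higher. Of 16 smooth muscle and pericyte markers 3 were lower and 1 higher at that threshold. The part of these cell types in the values of the 9 genes was not tested either. With the cardiomyocyte level as a covariate, Synpo stood at -0.10 and Flna at 0.0048, and Zyx, Tln1 and Tns1 also turned direction. That covariate was 9.15, 9.16 and 9.15 in S14R/+ and 9.08, 9.13 and 9.06 in wild type. As it was higher in every S14R/+ library, this fit cannot tell genotype from muscle content. Among the wider lists, 9 of 28 adhesion scaffold genes were positive (median -0.02; 1 higher and 2 lower at an unadjusted p under 0.05) and 9 of 25 cross-linkers and LIM proteins (median -0.02; 0 higher and 5 lower). The shares of tested genes were 2.41% higher and 3.53% lower. Of the 25, 7 lay wholly lower and 1 wholly higher, against 5.86% and 4.58% of tested genes. Of the 28, 1 lay wholly lower and 0 wholly higher. Cald1, caldesmon, which binds actin and myosin, averaged 199 ± 7.63 CPM in S14R/+ and 225 ± 15.3 CPM in wild type, with a log2 fold change of -0.16 ± 0.048 (edgeR adjusted p = 0.822). Filip1, which binds filamin A and promotes its breakdown, averaged 102 ± 1.54 CPM in S14R/+ and 111 ± 4.56 CPM in wild type (-0.11 ± 0.034), and 8 of 15 filamin partners were positive. Dchs1, an atypical cadherin gene mutated in human familial mitral prolapse, averaged 161 ± 2.55 CPM in S14R/+ and 173 ± 1.44 CPM in wild type (-0.09 ± 0.031), without overlap. It had the smallest p of 12 tested other mitral prolapse genes, of which 4 were positive (median -0.03). At an unadjusted p under 0.05, 0 of the 12 were higher and 1 lower, against 3.53% lower among tested genes. Only 1 of the 12 lay wholly lower, against 5.86% of tested genes. edgeR and DESeq2 called 0 genes of these lists.

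The order of the 9 genes by level per kilobase of transcript differed between the experiments, whose tables were counted and scaled apart, so it is given side by side without a test. In Ift88 knockout leaflets Zyx led with 128 ± 21.0 CPM per kilobase, followed by Lmcd1 with 84.3 ± 25.0, Flna with 63.3 ± 14.4 and Vcl with 40.8 ± 7.63. Tln1 (21.8), Tns1 (21.0), Synpo (16.8) and Flnc (12.2) followed, neighbours among these 4 overlapping, and Tns3 was last with 1.79 ± 0.57 CPM per kilobase. The means of their 2 wild-type libraries put the same 4 genes first, at 64.8, 43.8, 30.9 and 15.9 CPM per kilobase, and Tns3 last at 0.868. There all neighbours in the order overlapped except Vcl and Tns1, and Flnc and Tns3; in wild-type replicate 1 alone Flna, at 4.62 CPM per kilobase, stood below Vcl and Tns1. In S14R/+ leaflets Flna led with 130 ± 5.19 CPM per kilobase and overlapped Zyx with 126, ahead of Flnc (102), Vcl (74.1), Tln1 (66.4), Tns1 (53.1), Lmcd1 (26.0), Synpo (22.02) and Tns3 (20.9). Dzip1 wild-type leaflets kept that order, with Flna at 145 and Zyx at 132 and the ranges of Lmcd1 (27.4) and Synpo (25.0) overlapping. By group means Flnc thus ranked behind only Flna and Zyx in both Dzip1 genotypes and ahead of only Tns3 in both Ift88 genotypes, where its range overlapped that of Synpo.

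The pairs of genes varied together in different degrees. Over the 5 Ift88 libraries all 36 pairs had a positive Pearson correlation of log2 levels, from 0.21 to 0.98. Over the 6 Dzip1 libraries 23 of 36 were positive, from -0.86 to 0.91. These include the genotype difference and library composition and are given without a test. Among 11598 genes compared over all 11 libraries after scaling within each experiment, the genes most like Flna were Fubp1 (r = 0.97), Arrb2 (r = 0.97) and Tmem63a (r = 0.96). Those most like Flnc were Mical2 (r = 0.96), an enzyme that oxidises actin, Myo18a (r = 0.93) and Cabin1 (r = 0.93), those most like Tns1 were Utrn (r = 0.96), Zfp827 (r = 0.95) and Ablim1 (r = 0.95), and those most like Lmcd1 were Zfp955a (r = 0.95), Ptk2 (r = 0.94) and Ralgapb (r = 0.93).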

How the data were processed

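RNA of mouse mitral leaflets was purified with an RNeasy kit and DNase and amplified with the SMART-Seq v4 kit, per the labels' protocols. The submitters' processing notes name mouse build GRCm38 and the tools cutadapt 1.11, FastQC 0.11.5, DESeq, DESeq2 and HTSeq. Aligner, annotation and strand setting: not given in the sources used here. Vcl, Zyx and Tln1 overlap exons of Ap3m1, Epha1 and Creb3 on the other strand, by 2090, 236 and 360 bases, and without a stated strand setting reads there cannot be told apart. The authors deposited 1 table of raw counts per gene for each experiment. They also deposited log2 fold changes with a p-value and adjusted p-value; over all genes these correlated with the fold changes computed here at a Spearman rho of 0.946 for Ift88 and -0.543 for Dzip1, so those of Dzip1 were not used. A rho of -0.543 is neither agreement nor a plain change of sign, which libraries that table compares could not be settled, and the Dzip1 directions rest on the labels alone.

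Samples were grouped by the labelled genotype and the 2 tables were fitted apart with edgeR 4.0.16 in R 4.3.3 (TMM scaling, filterByExpr, quasi-likelihood F test, Benjamini-Hochberg adjusted p over all tested genes, threshold 0.05). All 9 genes passed the filter. The SE is the log2 fold change over the root of F, and the 95% interval takes the fit's total degrees of freedom. Levels are CPM of the library total without TMM. Lengths are those of the longest protein-coding transcript in GENCODE M21, found for 99.2% and 97.2% of tested genes. Alternatives were DESeq2 1.42.0, limma-voom 3.58.1, other scalings and filters, and an adjusted p threshold of 0.1. Others were the length trend removed, cardiomyocyte level as a covariate, and each library left out. In the Dzip1 experiment only, sex was a covariate, inferred from Xist against Y-linked genes. In the Ift88 experiment only, the title prefix was a covariate and the IR28N libraries were fitted alone. Total-count scaling was added after the data were seen. The genes named beyond the 9 are up to 3 per list with the smallest p in an experiment, the actins, and the 3 most correlated with Flna, Flnc, Tns1 and Lmcd1. The 9 genes and all lists were chosen with earlier results of these data known.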

Additional observations from a re-analysis of the deposited data

How the results depend on the processing

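Each of the 9 log2 fold changes was recomputed under 17 alternatives per experiment. Of 153 values in the Ift88 experiment, 149 kept their direction and their side of the threshold, 2 passed it and 2 changed sign; of 153 in the Dzip1 experiment, 144 kept both and 9 changed sign. In the Ift88 experiment DESeq2 called 376 genes, 2 of them among the 9, where edgeR and limma-voom called 0; leaving out a library gave 0 to 187 calls by edgeR, the 187 without wild-type replicate 1. Total-count scaling moved the median log2 fold change of all genes by 0.12 there, and that of the 9 to 1.16. Removing the length trend gave -0.193 for Tns1 and -0.0362 for Tns3. In the Dzip1 experiment leaving out a library gave 0 to 10 calls among all genes, the 10 without wild-type replicate 2, and a median of the 9 from -0.0762 to -0.0137, the higher value without S14R/+ replicate 2. Values there close to 0 changed sign: Tln1 was 0.0044 with the length trend removed and ran from -0.0329 to 0.0432 with a library left out (0.0169 without S14R/+ replicate 2, and the highest without wild-type replicate 1), and Flnc ran from -0.00748, when wild-type replicate 3 was left out, to 0.0525 (-0.000485 when replicate 2 was). With the cardiomyocyte level as a covariate Flna was 0.0048, Tns1 -0.0751, Zyx 0.0775 and Tln1 0.0179. The cause of these shifts was not tested. The labels give no number that pairs genotypes; with the Ift88 title prefix as a block, Flna was 2.01, the median of the 9 was 1.13 and 0 of the 9 were called by edgeR. With 3 libraries against 2 and a coefficient of variation of 87.7%, edgeR with all libraries and limma-voom made no call at the adjusted threshold in the Ift88 experiment, unlike DESeq2. When an Ift88 wild-type library was left out, the lone one was assumed to vary like the knockout libraries.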
